A study of Mus musculus with 2 samples.

Results

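Transcripts of 10 interferon-inducible GTPase genes were followed in mouse regulatory T (Treg) cells. The genes were chosen by symbol, and all 10 were found among the 32285 features of each library: Gbp2, Gbp2b, Gbp3, Gbp4, Gbp5, Gbp6, Gbp7, Gbp8 and Gbp9 of the guanylate-binding protein family, and Igtp of the immunity-related GTPase family. Treg cells had been stained with MitoTracker, a dye taken up by mitochondria, and FACS-sorted by its signal into a dye-high fraction (Mito-High) and a dye-low fraction (Mito-Low), written Mito-high and Mito-low here. Each fraction gave 1 library on the 10x Genomics Chromium 5′ kit version 2, which tags every captured molecule with a unique molecular identifier (UMI). The title of the series names copper and the suppressive capacity of Treg cells as its subject. The sources used here name no strain, genotype, age, tissue or treatment, and do not say whether animals were pooled.

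Guanylate-binding proteins are large GTPases made by cells that have received interferon gamma and, to a lesser degree, type I interferon. They bind and oligomerise on membranes of intracellular bacteria and parasites and help to open the vacuoles and microbes and to start inflammasome signalling through caspases. Immunity-related GTPases such as Igtp, also called Irgm3, act beside them on the same vacuoles, and interferon gamma reaches both families through its receptor and the kinases Jak1 and Jak2.

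The members sit in 3 places of the genome (GENCODE annotation of GRCm38, the mm10 build of the files). Gbp5, Gbp7, Gbp3, Gbp2b and Gbp2 lie in this order on the plus strand of chromosome 3, between 142493978 and 142638008, a stretch of 144 kb. Gbp2b itself, the member set against the others, runs from 142594847 to 142619179, and Gbp2 follows at 142620602. Gbp8, Gbp9, Gbp4 and Gbp6 lie on the minus strand of chromosome 5 between 105014150 and 105293698. Igtp lies on the plus strand of chromosome 11, from 58199556 to 58207591. Gbp8, Gbp9 and Gbp4 overlap on the same strand, and their annotated 5′ ends are at 105139540, 105139539 and 105139586, so a 5′ method can assign their molecules with uncertainty. Of all 90-base windows of annotated Gbp6 transcripts, 65.6% also occur in another gene, most often Gm43302, followed by Gbp10. The share was 10.5% for Gbp7 (mostly with Gm43802), 6.13% for Igtp (with its neighbour Irgm2), 0.329% for Gbp2b and 0.358% for Gbp2. Neither Gm43302 nor Gm43802 was found among the counted features, so the shares do not measure mixing between counted genes.

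Promoter windows, from 250 bases before to 50 after the start of the gene, were taken from RefSeq on GRCm38.p6 for the 6 members matched there. Entries for Gbp4, Gbp6, Gbp8 and Gbp9 were not matched. Both motifs of interferon signalling were searched on both strands: the core of the interferon-stimulated response element (GAAA, any 2 bases, GAAA) and the core of the gamma-activated site (TTC, any 3 bases, GAA). The sequences of 4 members are shown because the results set Gbp2b against the others: Gbp2b, its neighbour Gbp2, Gbp7 as the member furthest from equal levels among the measured ones, and Igtp from the other family. Capitals mark the motif matches.
Gbp2b, chr3:142594597-142594896, plus strand: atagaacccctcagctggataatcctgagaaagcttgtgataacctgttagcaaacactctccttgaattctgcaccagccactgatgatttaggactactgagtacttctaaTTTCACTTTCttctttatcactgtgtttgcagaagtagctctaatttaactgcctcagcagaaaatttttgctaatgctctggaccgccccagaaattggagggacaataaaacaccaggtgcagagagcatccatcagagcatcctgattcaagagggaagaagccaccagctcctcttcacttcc
Gbp2, chr3:142620413-142620712, plus strand: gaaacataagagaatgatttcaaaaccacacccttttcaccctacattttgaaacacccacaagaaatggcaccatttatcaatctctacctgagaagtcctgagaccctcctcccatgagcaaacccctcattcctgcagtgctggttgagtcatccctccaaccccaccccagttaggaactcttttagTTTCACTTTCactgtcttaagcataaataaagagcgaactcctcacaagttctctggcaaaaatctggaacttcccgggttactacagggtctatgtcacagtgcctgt
Gbp7, chr3:142530086-142530385, plus strand: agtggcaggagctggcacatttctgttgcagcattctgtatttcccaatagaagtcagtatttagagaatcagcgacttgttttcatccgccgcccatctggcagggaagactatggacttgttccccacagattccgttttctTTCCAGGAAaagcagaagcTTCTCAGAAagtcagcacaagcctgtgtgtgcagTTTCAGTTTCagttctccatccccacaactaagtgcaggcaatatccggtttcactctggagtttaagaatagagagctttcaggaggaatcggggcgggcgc
Igtp, chr11:58199306-58199605, plus strand: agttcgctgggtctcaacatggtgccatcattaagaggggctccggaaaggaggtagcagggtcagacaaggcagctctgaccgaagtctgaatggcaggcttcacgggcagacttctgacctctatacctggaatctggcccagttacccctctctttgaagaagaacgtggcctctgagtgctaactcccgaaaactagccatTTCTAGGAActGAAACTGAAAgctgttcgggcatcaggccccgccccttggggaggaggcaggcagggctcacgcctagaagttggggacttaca

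The response element, in either orientation, was found in 6 of the 7 windows of the matched members, since Gbp3 has 2 windows and the second holds no match. Over all 32851 windows of the table, 3.44% hold it. In Gbp2b the match covers positions −137 to −128 relative to the start, and in Gbp2 the same letters lie at −59 to −50. The gamma-activated site was found in 3 windows, those of Gbp5, Gbp7 and Igtp, against 8.30% of all windows, and these 3 held both motifs, against 0.454% of all windows. Gbp7 has it at −106 to −98 and at −87 to −79, Gbp5 at −245 to −237 and at −52 to −44, and Igtp at −45 to −37. The windows of Gbp2b, Gbp2 and Gbp3 hold only the first motif. A match is a string of letters and says nothing on binding.

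The libraries held 12352 Mito-high and 11901 Mito-low barcodes and 89996794 and 60688904 UMIs. After barcodes under 500 genes or above 20% mitochondrially encoded UMIs were left out, 12217 and 11679 cells were kept, with medians of 6132 and 4668 UMIs. They share 35 barcodes. Foxp3, the defining transcription factor of Treg cells, was at 25.8 and 41.0 UMIs per 1000000 (CPM), and all 8 Treg markers were detected in both. Those 8 summed to 3458 and 4980 CPM, and Il2ra alone among them was higher in Mito-high, at 210 and 157 CPM. The B cell markers summed to 169 and 332 CPM, of which Ighm, the IgM heavy chain, gave 150 and 314 CPM, and the 5 natural killer cell markers to 1.78 and 0.958 CPM, with Ncr1 at 0 UMIs in both. Gm42418, which overlaps a ribosomal RNA repeat and marks RNA quality, was at 1458 CPM in the Mito-high library against 4016 CPM, and 6 cycling genes summed to 374 and 57.8 CPM.

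The members' transcripts were compared first over all kept cells, which asks how the dye-high differs from the dye-low fraction. Every difference is one between 2 libraries, so no test, p-value or spread between replicates could be given, and the 95% intervals cover counting error only. Every one of the 9 members other than Gbp2b was lower in the Mito-high library, and so was Gbp2b. Together those 9 gave 246 CPM in the dye-high library (22146 UMIs) against 386 CPM in the dye-low library (23391 UMIs), a log2 ratio (Mito-high over Mito-low, as in all ratios between libraries) of −0.65 (−0.68 to −0.62). They are the measured members, with 10 CPM or above in either library. Of them, 4 were at least 1.5-fold lower in Mito-high, where 11.4% of all 7683 genes so measured were, and 0 were higher by that size, against 4.11% of genes. These genes split into 877 lower and 316 higher. With TMM scaling, which raises every ratio by 0.19, they split into 522 lower and 593 higher, and 3 members were still past 1.5-fold in the lower direction. The median log2 ratio was −0.49 over the 9 members and −0.15 over all measured genes. At this scaling genes in general thus leaned lower too, and the share of them below 0 was not counted. Gm42418 and the cycling genes differ between the libraries as given above, and the summed ratio was −0.61 without cells above 1% Gm42418, −0.60 without cycling cells and −0.62 at equal depth per cell.

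Gbp7 stood furthest from equal levels among the measured members. It is a family member that recruits to pathogen vacuoles, and its level was 43.2 CPM (41.8 to 44.5) in the dye-high library against 94.9 CPM (92.5 to 97.4) in the dye-low library. Its log2 ratio was −1.14 (−1.20 to −1.08), and 2.93% of measured genes had a lower one. Gbp3, the next gene along chromosome 3, was at 22.9 and 40.0 CPM with a log2 ratio of −0.80 (−0.89 to −0.72). Gbp8 was at 26.5 and 46.0 CPM (log2 ratio −0.80, −0.88 to −0.72), and Gbp6 at 21.3 and 33.7 CPM (−0.66, −0.75 to −0.57). These 4 made up the members past 1.5-fold. With the 4 cell classes described below weighted alike, Gbp7 (−0.84) and Gbp8 (−0.65) stayed past this size, while Gbp3 (−0.53) and Gbp6 (−0.54) did not.

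The other 5 measured members had smaller ratios. Gbp2, a guanylate-binding protein that helps to expose bacterial ligands to the inflammasome, was at 27.5 against 34.1 CPM (log2 ratio −0.31, −0.39 to −0.22). Gbp5, known for its part in NLRP3 inflammasome assembly, was at 16.9 and 21.6 CPM (−0.35, −0.46 to −0.25), while Gbp4 was at 31.6 and 43.7 CPM (−0.47, −0.55 to −0.39). Gbp9 was at 13.9 and 19.5 CPM (−0.49, −0.61 to −0.37). Igtp, which with Irgm1 regulates the loading of other GTPases onto vacuoles, was at 42.5 and 52.9 CPM (−0.32, −0.38 to −0.25). Because molecules of the overlapping Gbp4, Gbp8 and Gbp9 can be mixed up, their sum was formed as well: it was 72.0 against 109 CPM (log2 ratio −0.60, −0.65 to −0.55). Gbp6 summed with Gbp10 gave −0.64 (−0.72 to −0.55). These sums were chosen after the data were seen. The first lies between the ratios of Gbp4 (−0.47) and Gbp8 (−0.80), as a pooled ratio must. It therefore cannot show how far molecules of single genes were mixed up.

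**Figure D1:**
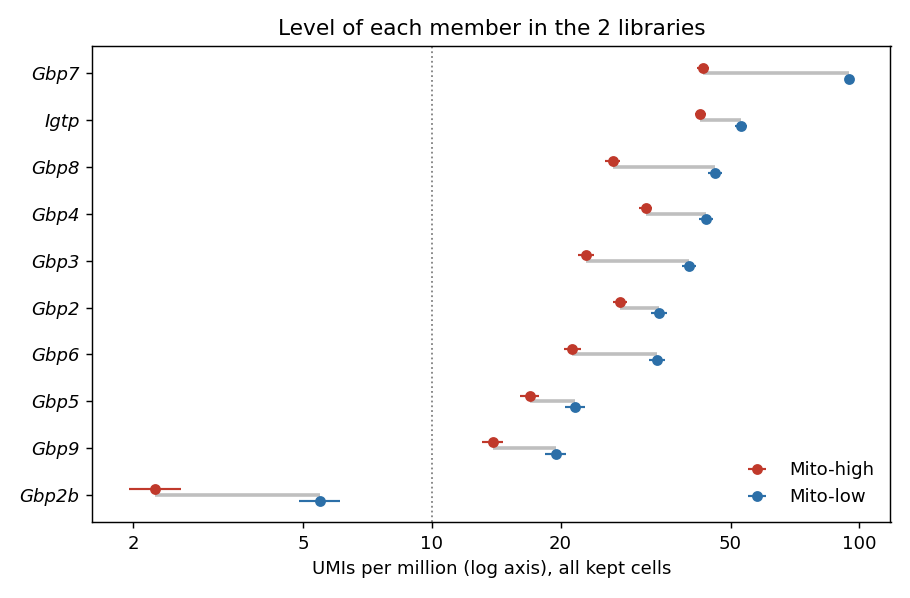
Level of each of the 10 members in UMIs per 1000000 (CPM) over all kept cells (log axis), 1 point per library, with 95% Poisson intervals of counting error. All 10 lie lower in Mito-high than in Mito-low, and Gbp2b alone is under 10 CPM in both libraries.

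More cells of the Mito-low library carried a member's transcript once depth was set equal. With 2000 UMIs drawn at random from each cell (thinning), and 139 and 491 shallower cells dropped, at least 1 member was found in 34.9% (34.1% to 35.8%) of the Mito-high cells against 47.0% (46.0% to 47.9%) of the Mito-low cells (exact Clopper-Pearson intervals). Unthinned, the shares were 67.3% and 70.6%. At least 3 members were found in 1.93% and 4.50% of the thinned cells. Gbp7 was found in 8.08% of thinned Mito-high cells against 16.5% in Mito-low, and in 22.8% and 31.9% of cells as measured. Gbp2 was found in 4.65% and 5.74% of thinned cells, while unthinned its shares were 13.9% and 12.7%, the opposite order, so no order is read from the unthinned shares. No cell type known to lack these genes was present in number to measure free RNA: Gbp7 was seen in 6 of 34 Mito-high and 5 of 10 Mito-low barcodes with at least 2 of 5 B cell genes, at median depths of 3936 and 6481 UMIs.

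The cells were then split into classes by the transcripts they carry. Resting cells carry at least 1 UMI of Igfbp4, a gene of resting Treg cells, and made up 22.7% of the Mito-high library and 1.61% of the Mito-low library (2771 and 188 cells). Effector cells carry at least 2 of Ccl5, Il10 and Klrg1, and were 1.40% and 13.1% (171 and 1533 cells). Interferon cells carry at least 3 of the 6 genes Ifit1, Ifit3, Isg15, Rsad2, Rtp4 and Ifih1, and were 5.45% and 6.76% (666 and 790 cells). The other cells, in none of these, were 72.0% and 79.6%. A cell can be in more than 1 class, and 189 Mito-high and 132 Mito-low cells were. Class membership moves with depth: after thinning, resting cells were 11.9% and 0.840%, effector cells 0.397% and 6.82%, and interferon cells 1.09% and 2.87%.

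Inside each class the median log2 ratio of all measured genes was below 0, from −0.14 in other to −0.06 in resting cells. The 9 measured members were again all lower in Mito-high as counted in every class. Under other settings this held for each of them in the other cells, but 3 of 144 values in resting, 17 of 144 in effector and 9 of 144 in interferon cells were at or above 0. Such values reached 0.27 for Gbp6 in resting cells without cells above 1% Gm42418. In cells of 4000 to 6000 UMIs they reached 0.56 for Gbp4 among effector cells and 0.67 for Gbp2 among interferon cells. Igtp was above 0 under at least 1 setting in all 3 of these classes, with TMM scaling among them in interferon cells (0.01). TMM scaling turned the genes past 1.5-fold from 762 lower and 316 higher to 454 and 583 in other cells. The split went from 936 and 309 to 617 and 485 in interferon cells, and from 702 and 378 to 522 and 508 in resting cells. In the other cells, the largest class, 3 of the 9 were at least 1.5-fold lower, against 9.93% of measured genes, and 0 were higher, against 4.12%. They were Gbp7, at 37.8 and 86.2 CPM (log2 ratio −1.19, −1.26 to −1.11), Gbp8 at −0.83 and Gbp3 at −0.76, and the members' median was −0.48 where all genes had −0.14. In the interferon cells, 1 of 9 was lower by this size, against 12.1% of genes, close to the share of genes in general, and 0 were higher, against 3.99%. It was again Gbp7, at 79.0 and 141 CPM (−0.83, −1.01 to −0.67), and the median of the members was −0.40 beside −0.13 for all genes.

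Among resting cells, 5 of 9 were at least 1.5-fold lower, against 9.45% of genes, and 0 higher, against 5.09%. These were Gbp7 (48.3 and 93.7 CPM, log2 ratio −0.97), Gbp4 (−0.84), Gbp3 (−0.76), Gbp5 (−0.70) and Gbp9 (−0.62), with a members' median of −0.62 and an all-gene median of −0.06. The Mito-low values rest on few molecules, from 21 UMIs of Gbp9 to 109 of Gbp7, and the interval of Gbp9, −1.20 to 0.16, spans 0. Gm42418 was at 1368 CPM in resting cells of Mito-high against 8714 CPM in those of Mito-low, and with cells above 1% Gm42418 left out, 3 of the 9 remained past 1.5-fold. In effector cells, 2 of 9 were lower by this size, against 13.3% of genes, and 0 higher, against 11.4%. They were Gbp9 at −0.61 (−1.40 to −0.01) and Gbp8 at −0.60 (−1.07 to −0.20), and Gbp7, at 87.0 and 119 CPM, had −0.45 (−0.70 to −0.22). This effector count was 0 under each of 3 other scalings of the libraries and without cells above 1% Gm42418. The median over members in effector cells was −0.43, and over all genes −0.07.

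**Figure D2:**
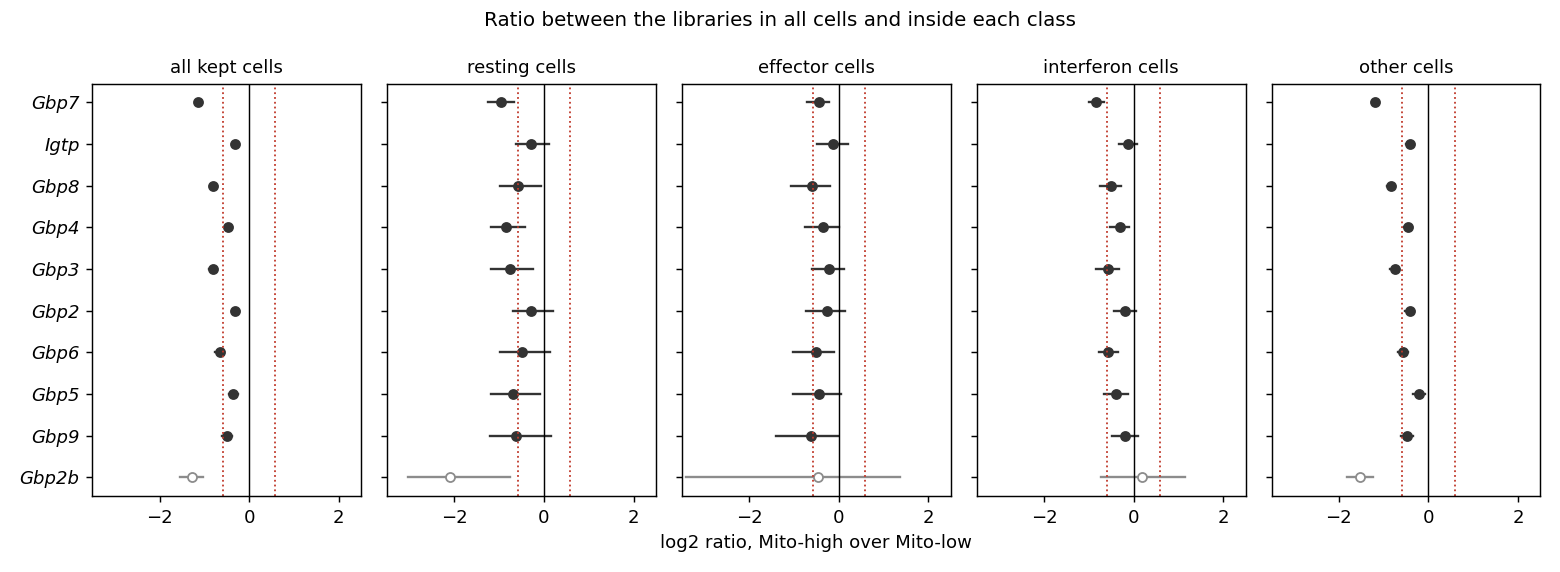
Log2 ratio (Mito-high over Mito-low) for each of the 10 members over all kept cells and inside each class, with 95% counting intervals. The solid line marks equal levels, the dotted lines 1.5-fold, and an interval running past the plotted range ends at its edge. The 9 members other than Gbp2b lie left of the solid line in every panel (under settings not plotted, some reached positive values in resting, effector and interferon cells, up to 0.67), while Gbp2b in interferon cells lies at 0.18.

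The interferon class was next set against the other cells inside the same library, which asks whether the members move with type I interferon-induced genes. They were higher in interferon cells in both libraries. In Mito-high, 9 of 9 were at least 1.5-fold higher, where 2.29% of all measured genes were, and 0 lower, against 0.297%, with a median log2 ratio of 1.04. In Mito-low, 8 of 9 were, against 2.93% of genes, and 0 lower, against 0.48%, with a median of 0.73. The exception was Gbp8 at 0.51. Gbp6 had 50.7 CPM in interferon cells and 19.9 CPM in other cells of the Mito-high library (log2 ratio 1.35, 1.16 to 1.53), and 74.9 and 29.7 CPM in Mito-low (1.34, 1.17 to 1.5). Gbp5 was at 34.9 and 15.8 CPM in Mito-high (1.15) and at 45.9 and 18.2 CPM in Mito-low (1.34). Summed over the 9 members, Mito-high interferon cells held 454 CPM and Mito-high other cells 225 CPM. Mito-low interferon cells held 620 CPM and Mito-low other cells 357 CPM. The ratio of interferon over other cells for this sum was 1.01 (0.95 to 1.07) in Mito-high and 0.80 (0.74 to 0.85) in Mito-low.

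Effector and resting cells differed less from the other cells in these genes. Of effector cells over other cells, 2 of 9 members were higher by 1.5-fold or more in Mito-high, against 14.9% of genes, and 0 in Mito-low, against 3.84%. The pair in Mito-high was Gbp7 (1.21, 0.96 to 1.43) and Gbp3 (1.02, 0.66 to 1.33), which in Mito-low had 0.47 and 0.48. None was lower by this size, against 6.29% and 2.09% of genes. Of resting over other cells, 0 of 9 members were higher by that size in Mito-high, against 0.535% of genes, and 1 in Mito-low, against 5.61%, which was Gbp5 (0.59, −0.02 to 1.07). Again 0 members were lower by this size, against 4.2% of genes in Mito-high and 16.3% in Mito-low.

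**Figure D3:**
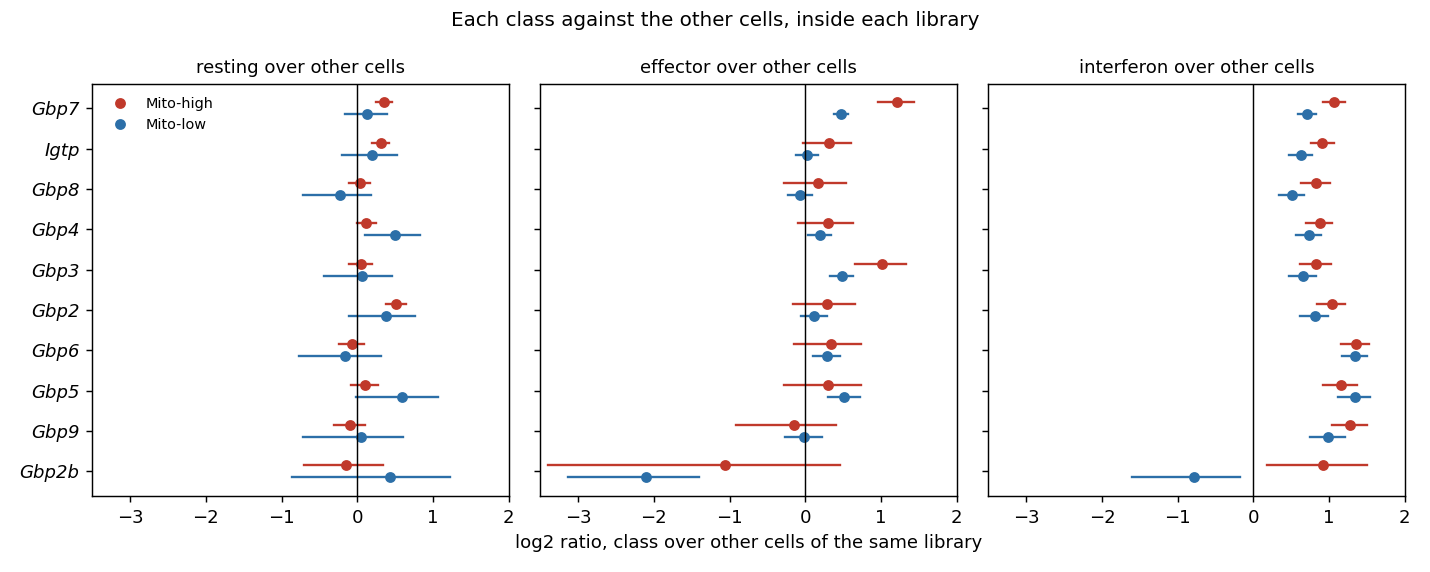
Log2 ratio of resting, effector and interferon cells over the other cells of the same library, for each member, with 95% counting intervals cut at the edge of the plotted range. In interferon cells the 9 members other than Gbp2b lie above 0 in both libraries, and Gbp2b lies at 0.92 in Mito-high and −0.78 in Mito-low.

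The same was seen by steps of the class genes in cells thinned to 2000 UMIs. In Mito-high, the sum of the 9 members was 227 CPM in cells with 0 of the 6 interferon genes detected, 308 with 1, 438 with 2 and 670 (575 to 777) with 3 or more. In Mito-low these were 349, 425, 496 and 776 CPM. At each step the Mito-low value was above the Mito-high value, although the intervals at 2 and at 3 or more genes overlap. The last step holds 132 Mito-high cells.

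**Figure D4:**
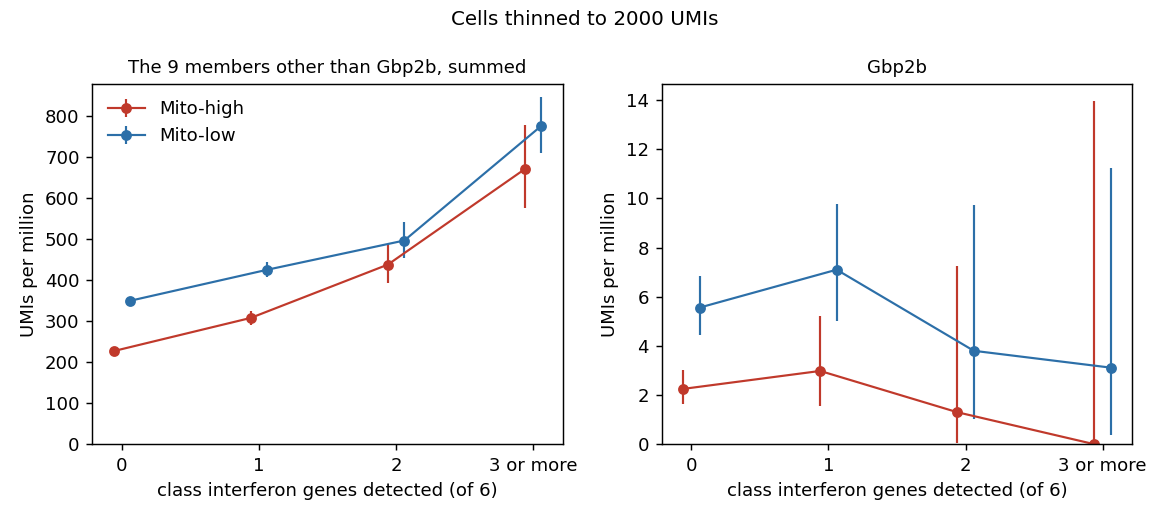
CPM against the number of class interferon genes detected, in cells thinned to 2000 UMIs, for the sum of the 9 other members and for Gbp2b, 1 line per library with 95% counting intervals. The sum runs from 227 to 670 in Mito-high and from 349 to 776 in Mito-low, and the few Gbp2b UMIs give wide intervals that overlap from step to step.

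Gbp2b, the gene long known as mouse Gbp1, was set against the others. Its transcript was seen in few cells, and its level was lower in the Mito-high library over all cells. Its level was 2.25 CPM (1.95 to 2.58, 202 UMIs) in the dye-high library against 5.47 CPM (4.90 to 6.09, 331 UMIs) in the dye-low library, a log2 ratio of −1.28 (−1.54 to −1.03). It stayed under the 10 CPM minimum in every class and is not among the counts above. Its interval lies below that of the summed 9 others, −0.68 to −0.62, and overlaps that of Gbp7. In other cells it was at 2.22 and 6.37 CPM (−1.52, −1.82 to −1.23). In resting cells it had 42 and 9 UMIs, giving 1.97 and 7.74 CPM (−2.09, −3.04 to −0.75). In interferon cells it was at 4.04 and 3.53 CPM (24 and 19 UMIs), a ratio of 0.18 whose interval, −0.73 to 1.15, spans 0. Without the interferon cell with most Gbp2b UMIs in each library, the levels in interferon cells were 1.85 and 2.79 CPM, the opposite order. Effector cells held 1 UMI in Mito-high and 13 in Mito-low, too few to compare.

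A Gbp2b transcript was found in 121 of 12217 Mito-high cells (0.990%, 0.822% to 1.18%) against 197 of 11679 Mito-low cells (1.69%, 1.46% to 1.94%). After thinning the shares were 0.364% and 0.974%. Its UMIs were concentrated: 59.9% in Mito-high and 63.1% in Mito-low came from cells with at least 2 of them, against 21.2% to 50.2% and 23.0% to 56.6% for the other members. The variance over the mean across thinned cells was 1.46 and 1.36, above the range of the other members in both libraries (1.05 to 1.31 and 1.06 to 1.34). Because UMIs of 1 cell are not independent, the counting intervals of Gbp2b are too narrow. The same holds for the other members, whose variance over the mean was also above 1. The highest cell held 13 UMIs and was a Mito-high interferon cell.

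By class, cells with Gbp2b were 27 of 2771 resting, 1 of 171 effector, 10 of 666 interferon and 87 of 8798 other cells in Mito-high. In Mito-low they were 5 of 188, 8 of 1533, 13 of 790 and 172 of 9300. The Mito-low share was 0.522% (0.226% to 1.03%) in effector cells and 1.85% (1.58% to 2.14%) in other cells, and these intervals do not overlap. Effector over other cells, Gbp2b had a log2 ratio of −2.10 (−3.13 to −1.41) in Mito-low. The 9 others ran there from −0.07 (Gbp8) to 0.52 (Gbp5), and their sum was at 0.25. Interferon over other cells, the Gbp2b ratio was 0.92 (0.18 to 1.5) in Mito-high and −0.78 (−1.60 to −0.18) in Mito-low, and without the top cell of the class −0.14 and −1.10. Shares of cells in these classes overlap in both libraries: 1.5% (0.722% to 2.74%) against 0.989% (0.793% to 1.22%) in Mito-high, and 1.65% (0.879% to 2.80%) against 1.85% (1.58% to 2.14%) in Mito-low. In cells thinned and split by detected interferon genes, Gbp2b was at 2.25, 2.98 and 1.3 CPM with 0, 1 and 2 of them in Mito-high, and 0 UMIs were found with 3 or more, which allows up to 11.4 CPM. In Mito-low it was at 5.56, 7.1, 3.80 and 3.12 CPM. The last steps of Mito-low rest on 4 and 2 UMIs.

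Cells with Gbp2b held more of the other members when these were summed. In Mito-high, the 9 others summed to 369 CPM in the 121 cells with Gbp2b and 245 CPM in those without (log2 ratio 0.60, 0.44 to 0.74), and in Mito-low to 664 and 381 CPM (0.80, 0.70 to 0.90). Of single members Gbp3 had the largest ratio in both libraries, at 49.5 against 22.6 CPM (1.16, 0.69 to 1.54) and at 94.4 against 38.9 CPM (1.29, 0.99 to 1.55). In Mito-high only the intervals of Gbp3, Gbp7 (0.43 to 1.12) and Igtp (0.36 to 1.07) lay above 0. In Mito-low only that of Gbp9 (−0.45 to 0.73) spanned 0. How far genes in general differ between cells with and without Gbp2b was not counted. Cells with Gbp2b were slightly deeper, with median depths of 7077 against 6123 UMIs in the Mito-high library and 5256 against 4662 in the Mito-low library.

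Over single cells, correlations were weak, as in sparse counts, and are given as a description. Cells of 1 library share its preparation and differ in depth. Between Gbp2b and each other member, Pearson's r of log counts per 10000 had a median of 0.017 over 9 pairs in Mito-high (12217 cells) and 0.036 in Mito-low (11679 cells), the highest being with Gbp3 at 0.051 and 0.077. Among the 9 others, the 36 pairs had medians of 0.077 and 0.087, with Igtp and Gbp6 highest at 0.157 and 0.165. Gbp2b was detected in 0.990% and 1.69% of cells and the others in 8.79% to 31.9%, so these medians are not on equal terms. Among genes at 10 CPM or more in both libraries, ranked by the lower of the values in the libraries, those most like Gbp2b were Prg4 (r of 0.138 and 0.164), Myo3b (0.115 and 0.134), Maf (0.136 and 0.107), Ccr4, Itm2b, Timp2, Socs2 and B4galt1 (0.066 and 0.067). Those most like the sum of the others included Iigp1 (0.247 and 0.220), Samhd1, Ifi47, Zbp1, AW112010, Psmb9 and Ifi203, with no gene in both lists.

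**Figure D5:**
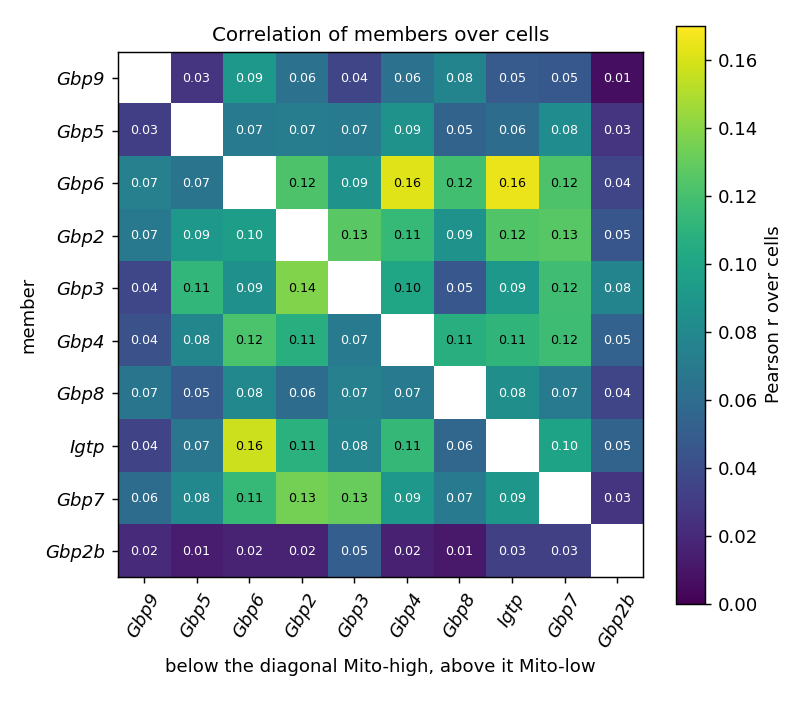
Pearson correlation over cells of log counts for each pair of the 10 members, Mito-high below and Mito-low above the diagonal. Pairs with Gbp2b have medians of 0.017 and 0.036, and pairs among the 9 others have medians of 0.077 and 0.087. Gbp2b was detected in fewer cells than the others, so these medians are not on equal terms.

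Genes of the pathway upstream of the members were read from lists chosen with earlier results known. Over all kept cells, 11.4% of measured genes were at least 1.5-fold lower in Mito-high and 4.11% higher, and the counts of these short lists are read beside those shares. Of the interferon gamma chain, 3 of 6 measured genes were at least 1.5-fold lower in Mito-high and 1 higher. Ifng, the ligand, was at 11.6 and 49.3 CPM (log2 ratio −2.08), and it was lower in every class. Ifngr1, the binding chain of the receptor, was at 184 and 384 CPM (−1.06), and Ifngr2, the signalling chain, was higher at 91.8 and 42.2 CPM (1.12). Inside resting cells the receptor chains were at −0.75 and 0.11. Irf1, a transcription factor that drives Gbp genes, was at −0.15, and Socs1, a brake on the receptor, at 0.12. Of the type I receptor chain, 1 of 5 genes was lower, Tyk2 (−0.70), with Ifnar1 at −0.41 and Ifnar2 at −0.40. Among regulatory factors and brakes, 1 of 8 was lower, Socs3 (−0.72), with Irf2 at −0.40 and Irf7 at −0.39, both under the size. A count of 1 in 8 is near the share of all genes.

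Among related GTPases outside the members, 1 of 5 measured was at least 1.5-fold lower in Mito-high, 1 higher and 3 between, where 11.4% and 4.11% of all genes were. In resting cells 4 of 6 measured were lower, against 9.45% of genes, on 16 (Gvin1) to 102 (Iigp1) Mito-low UMIs. In interferon cells 4 of 7 were, against 12.1%, and in effector and other cells 1 of 5, against 13.3% and 9.93%. Each class had 1 higher, against 5.09% of genes in resting, 11.4% in effector, 3.99% in interferon and 4.12% in other cells. Over all kept cells Gvin1, a very large GTPase, was at −1.0. Irgm1, the regulator that acts with Igtp on vacuoles, went the other way, at 14.5 and 7.65 CPM (log2 ratio 0.92), and it was higher in Mito-high in the 4 classes, at 1.70 in resting (on 4 Mito-low UMIs), 0.97 in effector, 1.10 in interferon and 0.92 in other cells. Iigp1, an effector GTPase of that family, was at −0.54. The 2 measured atlastins, dynamin-like GTPases of the endoplasmic reticulum, were each at −0.03. Of 16 measured interferon gamma targets, 5 were lower, among them Serpina3g (−2.40), Cxcl10 (−1.16) and Icam1 (−0.82), and 0 were higher. Of 16 measured type I interferon-induced genes, 5 were lower, among them Oas1a (−1.71), Ifit1 (−1.25) and Isg15 (−1.20), and 0 were higher. Inside resting cells 2 of 15 such interferon gamma targets and 2 of 16 such type I genes were lower, against 9.45% of genes. There Ifit1 was at 0.33, Isg15 at 0.02 and Icam1 at −0.09, while Cxcl10 was at −0.78 and Oas1a at −2.45 (on 13 Mito-low UMIs). Of the inflammasome and lysis partners through which the guanylate-binding proteins act, 3 of 5 were lower over all kept cells: Casp4 (−1.64), Casp1 (−1.28) and Aim2 (−0.71). Pycard, the adaptor of the inflammasome, was higher at 276 and 190 CPM (0.54), and at least 1.5-fold higher in each class (0.73 in resting, 1.31 in effector, 0.66 in interferon and 0.62 in other cells). In interferon and in other cells 3 of 5 were lower by that size, against 12.1% and 9.93% of genes. In resting cells 1 of 4 measured was, against 9.45%, and in effector cells 0 of 5, against 13.3%. The 1 higher in each class was Pycard. Casp4 was at −1.20 in resting (on 29 Mito-low UMIs), −0.57 in effector, −1.46 in interferon and −1.39 in other cells, while Aim2 was at 0.22 in resting cells. Pycard was named after its value was seen.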

How the data were processed

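The authors deposited unnormalised counts of UMIs for every gene and barcode, per the file headers. The submitters' processing notes name Cell Ranger 7.1.0, Seurat 4.3.0.1 and mm10. Annotation release, intron setting and any earlier barcode filter: not given in the sources used here. Barcodes with under 500 genes or over 20% mt- UMIs were left out, and no doublet caller was applied. Counts were summed per library and class and scaled to CPM. Log2 ratios used a pseudocount of 1. Intervals are exact (Poisson, conditional binomial, Clopper-Pearson; 95%) and a count of 0 is given with a limit of 3 counts. Genes reaching 10 CPM in either library count as measured, and 1.5-fold describes size only. With 1 library per group no test was made. Members, classes, lists and named genes (3 per pathway list by size of ratio, 8 most alike per set) were chosen with earlier results of these data known. Genome places came from GENCODE and promoters from RefSeq; protein sequences were not used here. A few genes of the lists are not reported here. Alternatives covered scaling, filters, depth, cell sets and class rules. Python 3.11.15, numpy 2.4.6, scipy 1.17.1, pandas 2.3.3, and edgeR 4.0.16 for TMM factors under R 4.3.3 were used, and the calculations were tested on simulated data.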

Additional observations from a re-analysis of the deposited data

Results flagged for a closer look

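Gbp2b moved in opposite directions between the libraries when interferon cells were set against other cells: the log2 ratio was 0.92 in Mito-high and −0.78 in Mito-low. Whether the libraries differ in this was not tested, since each gives 1 value. Of the 24 Gbp2b UMIs in Mito-high interferon cells, 13 came from 1 cell, and without the top cell of the class the ratios were −0.14 and −1.10.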

How the results depend on the processing

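No paired analysis was possible because each group holds 1 library, and no replicate could be left out. The 9 measured members were lower in Mito-high over all kept cells in each of their 144 values under the alternatives, and Gbp2b, −1.28 as reported, ranged from −1.41 to −1.09. TMM scaling moved all genes by 0.19. It turned the split of genes past 1.5-fold from 877 lower and 316 higher to 522 and 593, and left 3 members lower. The count of 4 became 2 with the 4 classes weighted alike.

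In resting cells the count of 5 became 3 without cells over 1% Gm42418. The effector count of 2 became 0 with TMM, with the median ratio set to 0, with mt-, ribosomal, receptor and immunoglobulin genes left out of the total, and without cells over 1% Gm42418. It became 1 without cells with B cell genes, with 1 more class gene required, and at a 20 CPM minimum. The interferon count of 1 became 2 after thinning or with 1 more gene required, and 0 with classes assigned after thinning. That last setting put Gbp8 in effector cells at 0.13. Of the 144 values per class for the 9 measured members, 17 in effector, 9 in interferon and 3 in resting cells were not negative, up to 0.56, 0.67 and 0.27.

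The summed ratio of −0.65 became −0.46 with TMM, −0.50 with the median set to 0 and −0.52 with the reduced total. It was −0.62 after thinning, −0.57 in cells of 4000 to 6000 UMIs, −0.61 as the mean of single cells, and −0.60 without the 5% of cells with most UMIs. It was −0.60 without cycling cells, −0.61 without cells over 1% Gm42418 and −0.52 with classes weighted alike. Leaving out Gbp2, Gbp7 or Igtp gave −0.69, −0.52 and −0.71. The setting without cells over 1% Gm42418, the sums over overlapping genes and the Gbp2b values without the top cell were chosen after seeing the data.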
